A study of Mus musculus with 2 samples.

Results

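Mir132, Mir212, Mir128-1, Mir128-2, Mir138-1 and Mir138-2 are miRNA genes best known from neurons, and their reads were examined here in the neonatal heart. They were chosen by gene symbol in the GENCODE M21 annotation, not by measured values, although earlier results of these data were known. They make up 6 of the 2202 miRNA genes counted. The libraries came from whole heart tissue of male B6CASTF1/J mice aged 4 days. B6CASTF1/J animals are F1 hybrids of the inbred lines C57BL/6J and CAST/EiJ, so every animal carries a genome copy of each line. Small RNA below 30 in the size range given by the labels was sequenced from total RNA, with 1 library from each of 2 animals. The labels number the animals as male 03 and male 04 but give both the same donor identifier. If the libraries did not come from separate hearts, the spread between them is technical. There is a single group with no treatment or mutation, so no conditions were compared, and the differences tested below are between these 2 libraries.

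A miRNA gene is transcribed as a hairpin, from which a 5p and a 3p arm are cut out as mature miRNAs. The mature strand pairs with target messenger RNAs mainly through its seed, bases 2 to 8, and lowers their translation or stability. Mir132 and Mir212 are transcribed together from a locus that the transcription factor CREB activates in stimulated neurons, and the pair is also known for driving hypertrophic growth of heart muscle cells. miR-128 is among the most abundant miRNAs of the brain, where it restrains neuronal excitability, and it is known in the heart as a brake on cell division. miR-138 acts at synapses, where it limits the size of dendritic spines, and shapes the chambers of the fish heart.

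The mature arms are shown first because they decide which reads can be given to a gene. All 6 hairpins were found in RefSeq (GRCm38.p6, the coordinates of mm10) with the same sequence and position as in GENCODE M21. Capitals mark the seed.
miR-132-3p: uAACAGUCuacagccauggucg
miR-212-3p: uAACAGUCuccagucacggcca
miR-132-5p: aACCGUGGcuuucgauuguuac
miR-212-5p: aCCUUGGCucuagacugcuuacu
miR-128-3p: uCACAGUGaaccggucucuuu
miR-128-1-5p: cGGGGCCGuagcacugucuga
miR-128-2-5p: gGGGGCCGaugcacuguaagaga
miR-138-5p: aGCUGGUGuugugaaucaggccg
miR-138-1-3p: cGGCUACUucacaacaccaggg
miR-138-2-3p: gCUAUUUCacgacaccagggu

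The 3p arms of Mir132 and Mir212 share the seed AACAGUC, and no other mature miRNA of the table carries it. They were identical at 17 of 22 positions. Counted from the 5′ end of miR-132-3p, the substitutions toward miR-212-3p were A10C, C14U, U17C, U20C and G22A. The longest run common to both hairpins was 10 bases, and 15 bases from the start of any of the 4 arms occurred in only 1 annotated hairpin. Their 5p arms carry different seeds.

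The Mir128 and Mir138 copies are different in this respect. miR-128-3p is cut from both Mir128 hairpins with the same letters, and miR-138-5p from both Mir138 hairpins. The hairpins are printed below with the arm that both copies hold in capitals, to show how little flanking sequence separates the copies.
Mir128-1: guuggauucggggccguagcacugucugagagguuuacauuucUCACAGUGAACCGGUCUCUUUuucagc
Mir128-2: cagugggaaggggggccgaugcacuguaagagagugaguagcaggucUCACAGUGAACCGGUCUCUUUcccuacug
Mir138-1: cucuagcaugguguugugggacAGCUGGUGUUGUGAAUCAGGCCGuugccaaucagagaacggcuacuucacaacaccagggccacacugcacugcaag
Mir138-2: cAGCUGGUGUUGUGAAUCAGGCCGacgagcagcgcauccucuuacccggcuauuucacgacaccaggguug

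A read that starts at the first base of miR-128-3p, 21 bases long as annotated, occurs in both Mir128 hairpins until it runs to 22 bases. A read of miR-138-5p, 23 bases as annotated, occurs in both Mir138 hairpins until it runs to 24 bases. The authors' counts leave out reads with more than 1 place in the genome. The counts of these 4 genes therefore come from the other arm, reads running past the shared arm, or other parts of the hairpin. They are lower limits if each counted read came from the hairpin it matched, which was not tested. The opposite arms are not shared: miR-128-1-5p and miR-128-2-5p have the seed GGGGCCG in common but are not identical, and the 3p arms of the Mir138 copies differ in seed. The tables do not separate arms, so which arm gave the counted reads was not determined.

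**Figure D1:**
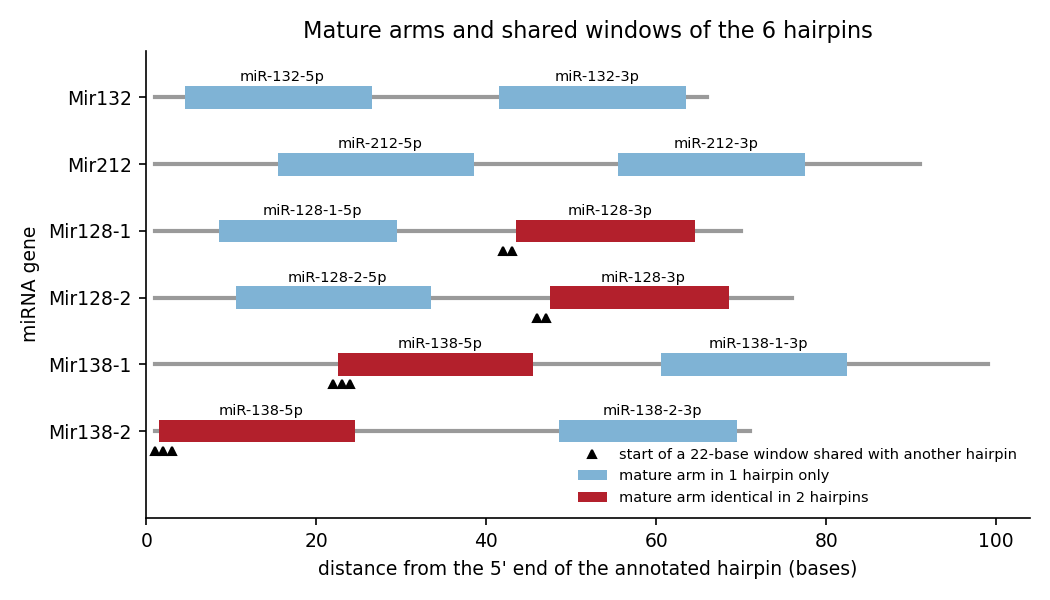
Each line is an annotated hairpin, drawn from its 5′ end in bases, with its mature arms as boxes and with triangles where a 22-base window that also occurs in another annotated hairpin starts. Shared windows start at 2 positions in each Mir128 hairpin and at 3 in each Mir138 hairpin, all close to the first base of the shared arm, and at 0 in Mir132 and Mir212.

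Of the 6 hairpins, 4 share a window of 22 bases with another annotated hairpin, beside 1023 of all 2202 (46.5%). Only annotated miRNA hairpins were searched. The hairpins also differ in where they lie. Mir212 (chr11:75173388-75173478, plus strand) and Mir132 (chr11:75173682-75173747, plus strand) lie 203 bases apart in an intron of the noncoding transcript 1700016P03Rik. Mir128-1 (chr1:128202361-128202430, plus strand) lies in an intron of R3hdm1 and Mir128-2 (chr9:112118636-112118711, minus strand) in an intron of Arpp21, a gene of a neuronal phosphoprotein. Mir138-1 (chr9:122682876-122682974, plus strand) lies in an exon of the transcribed pseudogene Gm47135, and Mir138-2 (chr8:94324311-94324381, plus strand) in an exon of the noncoding gene C78859. All coordinates are mm10, and every one of these host transcripts runs on the strand of its miRNA.

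Only reads on the strand of the gene (sense counts) were used. Replicate 1 had 4196577 of them and replicate 2 had 3801738, which is 43.8% and 40.9% of the reads in the tables. Multi-mapped reads made up 38.1% and 42.3%. Levels are given in CPM, the sense count of a gene per 1000000 sense counts of its library, where a single read is worth 0.238 and 0.263 CPM. The cardiac muscle list, which marks the labelled tissue, held 13094 and 8924 CPM. Nearly all of that came from Mir499, Mir208b and Mir208a, which lie in introns of myosin heavy chain genes and were each called lower in replicate 2 by the test described below. The other 4 of its 7 genes, copies of the muscle miRNAs miR-1 and miR-133, had few assigned reads, and each shares a window with another hairpin. Mir1a-2 had 33.1 and 54.4 CPM and Mir133a-1 had 2.62 and 7.63 CPM, both called higher in replicate 2. Mir1a-1 had 2.38 and 3.42 CPM and Mir133a-2 had 1.67 and 1.32 CPM. The endothelial gene Mir126a held 10.9% and 4.93% of counts, and the smooth muscle and pericyte genes Mir143 and Mir145a 4.86% and 7.95%. The red blood cell genes Mir451a, Mir486 and Mir144 held 0.0493% and 0.0400%, and the white blood cell genes Mir150, Mir142 and Mir223 held 0.0523% and 0.0735%.

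The 6 neuronal genes were all detected, and together they held 0.118% of the counts in replicate 1 and 0.0920% in replicate 2. Mir132 had the most reads and Mir212 the fewest by mean level. Mir132 had 2731 counts in replicate 1 and 1782 in replicate 2, or 651 CPM (exact Poisson 95% interval 627 to 676) and 469 CPM (447 to 491). Its mean of 560 ± 129 CPM (SD, n = 2) placed it 97th of 441 genes with 10 or more counts over both libraries. Places are by assigned reads. Genes that share sequence with others lose multi-mapped reads and can stand too low beside Mir132, which shares no window. The level of Mir132 was lower in replicate 2 and the counting intervals of the libraries did not overlap. All intervals given here cover counting error only, and not the spread between libraries. Reads of an amplified library are not independent molecules, so the intervals can be too narrow even for counting error.

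Mir212, the partner of Mir132 on the same transcript, stood much lower. It had 66 and 111 counts, or 15.7 CPM (12.2 to 20.0) and 29.2 CPM (24.02 to 35.2), with a mean of 22.5 ± 9.52 CPM (SD, n = 2) and the 250th place. It was higher in replicate 2, the opposite order to Mir132.

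Mir128-1 had the second most assigned reads, and its count is a lower limit of its reads on the condition given above. Its CPM is not a lower limit, because multi-mapped reads are missing from the library totals too. Mir128-1 had 1389 and 957 counts, or 331 CPM (314 to 349) and 252 CPM (236 to 268), a mean of 291 ± 56.0 CPM (SD, n = 2). Mir128-2, which produces the same mature miR-128-3p, had 155 and 112 counts, or 36.9 CPM (31.3 to 43.2) and 29.5 CPM (24.3 to 35.4), a mean of 33.2 ± 5.29 CPM (SD, n = 2). Both copies were lower in replicate 2, and the intervals of Mir128-2 overlapped between the libraries.

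The Mir138 copies lay close to each other and, with library totals, varied least. Under the other scalings described below, Mir138-1 differed more between the libraries than Mir128-2. Mir138-1 had 333 and 320 counts, or 79.4 CPM (71.1 to 88.3) and 84.2 CPM (75.2 to 93.9), a mean of 81.8 ± 3.41 CPM (SD, n = 2). Mir138-2 had 281 and 214 counts, or 67.0 CPM (59.4 to 75.3) and 56.3 CPM (49.0 to 64.4), a mean of 61.6 ± 7.54 CPM (SD, n = 2). The intervals overlapped between the libraries for each copy. The coefficient of variation over the libraries was 4.17% for Mir138-1 and 12.2% for Mir138-2, beside 42.4% for Mir212, the widest of the 6.

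**Figure D2:**
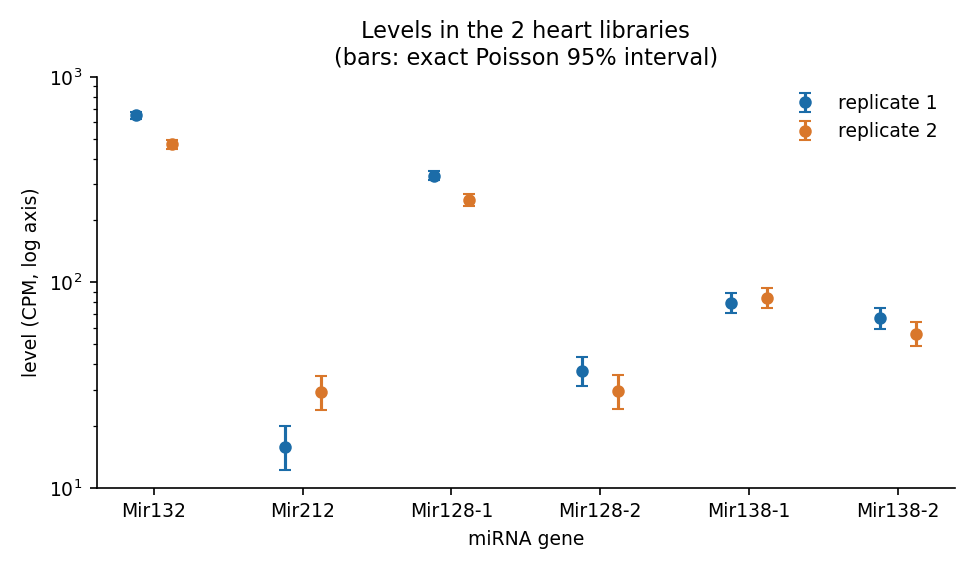
Points give the level of each gene in CPM on a log axis in replicates 1 and 2, and bars give the exact Poisson 95% interval of each count. Mir132 and Mir128-1 stand above the other 4 genes in both libraries, and Mir212 is the gene that is clearly higher in replicate 2.

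The order by mean level was Mir132, Mir128-1, Mir138-1, Mir138-2, Mir128-2 and Mir212, and it was the same in each library. This is the order of reads assigned to 1 gene. The Mir128 and Mir138 copies can rank too low in it, while Mir132 and Mir212 share no window. A read of a miRNA spans the whole mature molecule, so counts were not divided by length. Per base of the annotated hairpin the means were 8.48 CPM for Mir132, 4.16 for Mir128-1, 0.868 for Mir138-2, 0.826 for Mir138-1, 0.437 for Mir128-2 and 0.247 for Mir212. By mean, the Mir138 copies changed places on that scale. In replicate 2 Mir138-1 stayed higher, at 0.850 against 0.793 CPM per base. Their order thus depended on the scale and, per base, on the library. Mir128-2 and Mir212 had overlapping counting intervals in replicate 2, where their levels were 29.5 and 29.2 CPM. The intervals of the Mir138 copies overlapped in replicate 1. By mean level, all neighbours in the order, these pairs included, were further apart than the SD of either gene.

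No antisense reads were counted for any of the 6 genes, with 0 counts on the opposite strand in both libraries. A count of 0 allows up to 0.715 CPM in replicate 1 and 0.789 CPM in replicate 2, the level of 3 reads. Counts without regard to strand were identical to the sense counts for each gene. Overlap with a hairpin on the opposite strand, which removes reads of Mir126a from the strand-blind counts, therefore did not touch these genes.

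Ratios within a library do not depend on how libraries are scaled, and 3 pairs were compared in this way. Mir132 exceeded Mir212 by 41.4-fold in replicate 1 (exact binomial 95% interval 32.4 to 53.7) and by 16.1-fold in replicate 2 (13.2 to 19.6). The intervals did not overlap, and the log2 ratio was 4.69 ± 0.97 (SD, n = 2). Mir132 was thus the main source of counted reads from the shared transcript in both animals, with 97.6% and 94.1% of the counts of the pair. Efficiency of ligation and amplification can differ between 2 miRNA sequences in the same way in every library, which was not tested.

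The ratio of the Mir128 copies hardly differed between the animals. Mir128-1 had 8.96 times the counts of Mir128-2 in replicate 1 (7.59 to 10.6) and 8.54 times in replicate 2 (7.02 to 10.5). Their log2 ratio was 3.13 ± 0.05 (SD, n = 2). Mir138-1 had 1.19 times the counts of Mir138-2 in replicate 1 (1.01 to 1.39) and 1.495 times in replicate 2 (1.25 to 1.79). The log2 ratio of the Mir138 copies was 0.41 ± 0.24 (SD, n = 2), and the intervals of the libraries overlapped. Per hairpin base its mean became -0.067, so by mean neither Mir138 copy stood above the other on both scales. For these copies the ratios compare only the reads that could be assigned to 1 hairpin, not the amount of miR-128-3p or miR-138-5p that each locus produced.

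**Figure D3:**
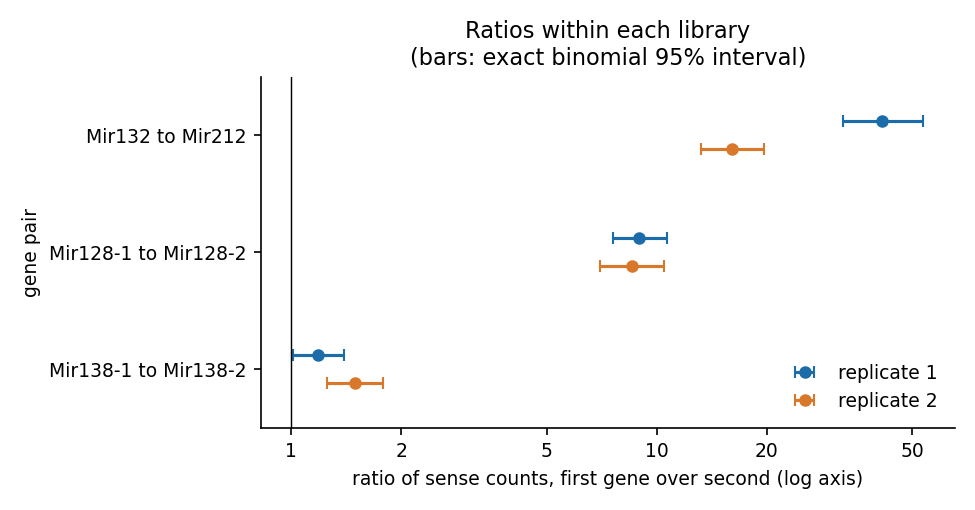
Points give the ratio of sense counts of the first gene to the second in each library on a log axis, with exact binomial 95% intervals as bars. The intervals of the libraries are separate for Mir132 to Mir212, at 41.4 and 16.1, and overlap for the other 2 pairs.

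Differences between the animals were tested by a two-sided Fisher's exact test of each gene against the rest of its library, adjusted by Benjamini-Hochberg over all 441 tested genes. This test takes counting error as the only error, and 56.9% of the tested genes passed it at an adjusted p under 0.05. Of the 6 genes, 1 was higher and 2 were lower in replicate 2, beside 20.4% and 36.5% of all tested genes. The median log2 ratio of the 6 genes was -0.28, and that of all tested genes was -0.26. Ratios are replicate 2 over replicate 1, on the scale of log2(CPM + 1).

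Mir132 was lower in replicate 2 with a log2 ratio of -0.47 (adjusted p = 7.29e-27, Fisher's exact test). Mir128-1 was lower with -0.39 (adjusted p = 1.97e-10, Fisher's exact test). Mir212 was higher with 0.85 (adjusted p = 0.000141, Fisher's exact test). Mir132 and Mir128-1 are the members with the most counts, and both lay close to the median of all genes: 336 and 368 of the 441 tested genes were further from that median. Mir212 stood further out, with 56 tested genes (12.7%) further from it.

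The other 3 genes did not pass the test. Mir128-2 had a log2 ratio of -0.32 (adjusted p = 0.120), Mir138-2 of -0.25 (adjusted p = 0.0966) and Mir138-1 of 0.08 (adjusted p = 0.556), all by Fisher's exact test.

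How the libraries were scaled decided some of these calls. TMM scaling (trimmed mean of M-values) raised replicate 2 against replicate 1 by 0.24 on the log2 scale and DESeq2's size factors by 0.31, and log2(CPM + 1) ratios of low genes moved by less. The split of called genes, 90 higher and 161 lower with library totals, became 124 and 116 with TMM and 136 and 104 with DESeq2's size factors. Mir128-1 kept its call with TMM (log2 ratio -0.15, adjusted p = 0.0242 by Fisher's exact test) and lost it with DESeq2's size factors (-0.08, adjusted p = 0.281). Mir138-1 was called higher with TMM (0.33, adjusted p = 0.00825 by Fisher's exact test) and with DESeq2's size factors (0.40, adjusted p = 0.00104). Mir138-2 turned to 0.06 with DESeq2's size factors. Mir132 stayed lower and Mir212 stayed higher under both scalings.

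The spread that counting error does not cover was estimated with edgeR over the 344 genes that reached 10 counts in both libraries. Its biological coefficient of variation was 0.379. With that spread, edgeR's exact test called 2 of 441 genes (0.454%), Mir9-3 and Mir26a-1, which are named here because of their values, and 25 genes had an unadjusted p under 0.05. None of the 6 genes was among the 2, with edgeR's exact test giving an adjusted p of 1.0 for each. The spread in that test came from the same 2 libraries, so few calls are built into it.

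**Figure D4:**
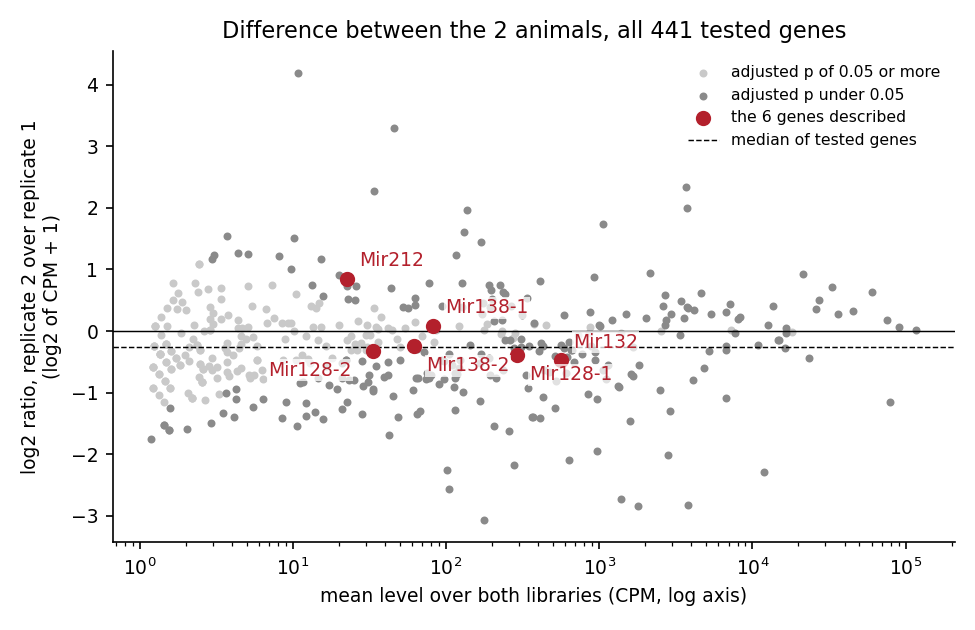
Each point is 1 of the 441 tested genes, with its mean level in CPM on a log axis and its log2 ratio, replicate 2 over replicate 1. The dashed line is the median of all tested genes, -0.26. Mir212 stands above the other 5 red points, which lie between -0.47 and 0.08.

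Mir132 and Mir212 differed in direction although they lie on the same transcript. Their log2 ratios were 1.37 apart, computed from counts without a pseudocount. Hairpins with a mean count of 50 or more were paired with the next such hairpin on the same strand within 1 kb, giving 58 pairs. Hairpins with fewer counts were skipped and can lie inside a pair. The median gap in log2 ratio over these pairs was 0.695, and 12 pairs had a larger gap than Mir132 and Mir212. In 24 of the 58 pairs, that of Mir132 and Mir212 included, the paired hairpins were called in opposite directions by Fisher's exact test. Some pairs share a hairpin of the same cluster, so they are not all separate loci. Gaps larger than that of Mir132 and Mir212 were thus also present at other loci.

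The other neuron-enriched miRNAs gave context for the 6 genes. A list of 22 such genes held 611 and 560 CPM in all, 0.517 and 0.609 times the sum of the 6. Of these, 13 had enough counts to be tested, with 2 called higher and 4 called lower in the second animal by Fisher's exact test, beside 20.4% and 36.5% of all tested genes. Their median log2 ratio was -0.35, beside -0.26 over all tested genes. The list was led by Mir134, a miRNA of dendrites from the imprinted Dlk1-Dio3 locus, with 444 and 390 CPM. Mir137, a regulator of neuronal differentiation, followed with 58.4 and 41.8 CPM, and Mir218-2, a motor neuron miRNA, with 19.1 and 32.4 CPM.

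Mir132 exceeded Mir134, the highest gene of that list, by 1.46-fold and 1.20-fold and Mir137 by 11.1-fold and 11.2-fold in replicates 1 and 2. Mir208a, a heart muscle miRNA, exceeded Mir132 by 3.21-fold (exact binomial 95% interval 3.08 to 3.35) and 2.69-fold (2.54 to 2.84). Mir499 exceeded it by 8.90-fold (8.56 to 9.27) and 9.88-fold (9.41 to 10.4). Mir132 thus stood above the 22 other neuron-enriched genes and below the 3 myosin-intron genes in both animals, by assigned reads. The 4 copies of miR-1 and miR-133 had fewer assigned reads than Mir132 in both.

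Counts were 0 in both libraries for 4 of the 22 genes, Mir9-2 and the 3 Mir124a copies, beside 1458 of 2202 over all genes. miR-124 is the most neuron-restricted of these miRNAs, but each Mir124a hairpin shares 20 or more windows of 22 bases with another hairpin. Reads of a sequence with several copies are left out of the counts, so a count of 0 here sets no limit on mature miR-124. In the list as a whole, 14 of 22 hairpins share a window. Markers of glia and Schwann cells, which ensheathe the nerves of the heart, held 84.1 and 74.2 CPM. Mir338 gave most of that, with 59.6 and 66.0 CPM, while Mir219a-2 had 18.1 and 6.31 CPM, Mir219a-1 had 6.43 and 1.84 CPM and Mir219b had 0 counts. The part of nerve cells in the reads of the 6 genes was not tested, and fewer cells of a type cannot be told apart from less RNA per cell in whole tissue.

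**Figure D5:**
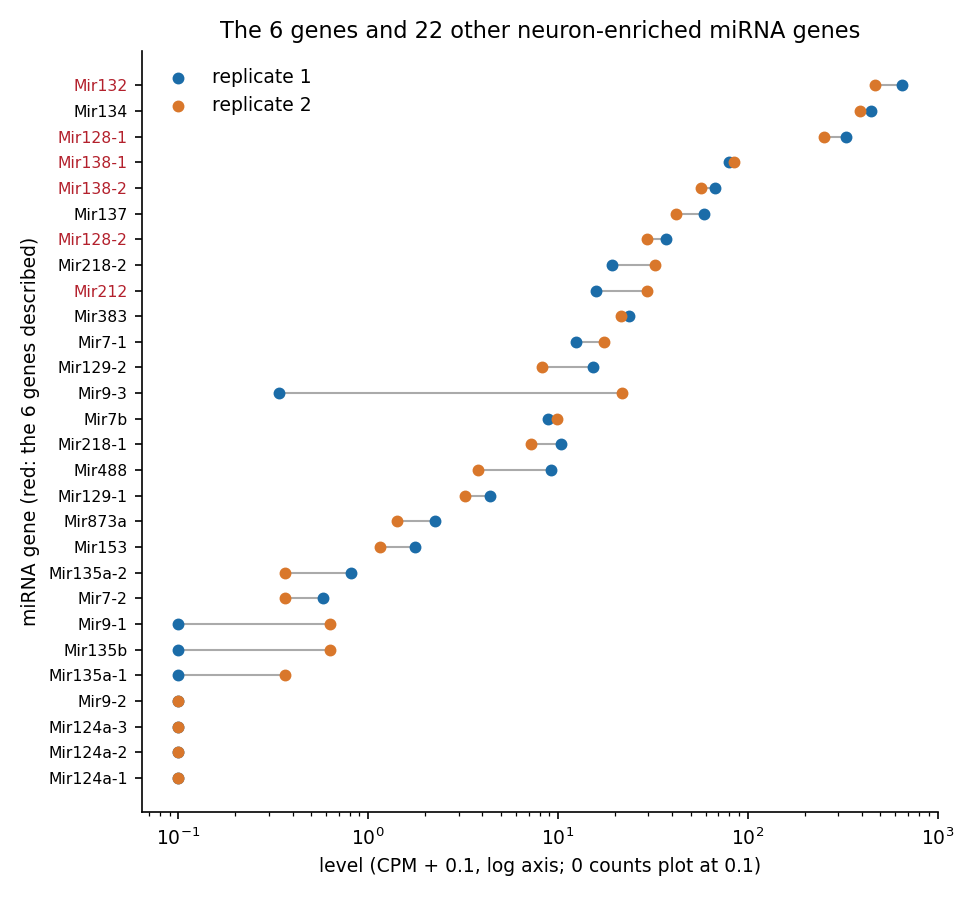
Points give the level in CPM plus 0.1 on a log axis for the 6 genes, in red, and the 22 other neuron-enriched miRNA genes in each library, ordered by mean level. Mir132 stands at the top with Mir134 and Mir128-1 below it, and the 3 Mir124a copies and Mir9-2 are at 0 counts.

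Genes with the most similar levels over the 2 libraries were found by the distance between log2(CPM + 1) values. Nearest to Mir132 were Mir409, Mir16-1 and Mir425, at distances of 0.16 to 0.19. Nearest to Mir212 were Mir7j, Mir547 and Mir181b-1, at 0.09 to 0.25. Mir1981, Mirlet7c-1 and Mir369 were nearest to Mir128-1, and Mir204, Mir92b and Mir664 to Mir128-2. Mir193b, Mir370 and Mir190a were nearest to Mir138-1, and Mir199b, Mir26a-2 and Mir338 to Mir138-2. No member was among the 3 nearest genes of another member. With 2 libraries this likeness covers level and the difference between the animals, and nothing else.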

How the data were processed

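The tables deposited by the authors give unnormalized counts of reads for each miRNA gene, aligned to mm10 with GENCODE M21, per the description files deposited with them. The aligner was not given in the sources used here. Loss of reads from CAST/EiJ alleles was not tested. Lines for unmapped, multi-mapped and unassigned reads stayed out of library sizes. The sense column was used throughout. The genes and lists were chosen with earlier results of these data known.

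All 2202 gene IDs matched GENCODE M21. Genes with 10 or more counts over both libraries were tested with Fisher's exact test (scipy 1.17.1), because 1 library per animal leaves edgeR's quasi-likelihood test without residual degrees of freedom. TMM, dispersion and the exact test came from edgeR 4.0.16, and size factors from DESeq2 1.42.0. Alternatives were other scalings, strand-blind counts, no count minimum, other pseudocounts, other denominators and counts per hairpin base. Genes named are the 6 members, the 3 nearest to each in level and the 3 most abundant of each list, plus genes singled out after their values were seen.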

Additional observations from a re-analysis of the deposited data

How the results depend on the processing

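With all reads as the denominator the mean levels were 238 CPM for Mir132, 9.41 for Mir212, 124 for Mir128-1, 14.1 for Mir128-2, 34.6 for Mir138-1 and 26.2 for Mir138-2. With strand-blind counts, whose library totals are smaller, they were 734 for Mir132, 382 for Mir128-1, 43.5 for Mir128-2, 106 for Mir138-1 and 80.6 for Mir138-2. The strand-blind log2 ratio of Mir138-1 between the animals turned to -0.027, and that of Mir138-2 became 0.064 with DESeq2's size factors. Strand-blind counts brought Mir128-2 (adjusted p = 0.0267) and Mir138-2 (adjusted p = 0.0117) past the threshold of Fisher's exact test, both lower. Calls over all genes numbered 237 to 251 under other scalings, pseudocounts, filters and strand-blind counts, and 2 with edgeR's exact test. Per hairpin base the log2 ratio of Mir128-1 to Mir128-2 was 3.25 and that of Mir138-1 to Mir138-2 was -0.067. Without the TMM factor, an alternative added after seeing the data, the biological coefficient of variation was 0.391. Leaving out a replicate gives the value of the other library, printed above, and leaves no test between animals. No paired analysis was possible because there is a single group. Depth limits Mir212 and Mir128-2 most.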

Other observations

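Mir9-3 had 1 count in replicate 1 and 82 counts in replicate 2, the widest gap among the 28 neuron-enriched genes examined, while Mir9-1 had 0 and 2 counts and Mir9-2 had 0 and 0. It was singled out after its values were seen. The Mir9 hairpins each share windows of 22 bases with at least 1 other annotated hairpin.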
